A study of Saccharomyces cerevisiae with 12 samples.

Results

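The RNA that came down with the export receptor Mex67 in unstressed budding yeast was compared with the RNA recovered from cells without a tag. The comparison rests on 4 of the 12 sequencing libraries of the study, chosen by their titles as Mex67 IP or no-tag control at 25 °C, 2 of each. The Mex67 libraries are labelled as strain HKY1266. The control libraries are labelled HKY36/HKY381 without a statement of which library came from which of these strains. The 2 Npl3 libraries at 25 °C (strain HKY157) and the 42 °C libraries of Mex67 and of the control, 2 each, are used below only to show where the 25 °C values differ. All cultures grew at 25 °C in rich YPD medium to log phase, were divided and were kept in a dish for 30 min at 25 °C or at 42 °C before UV light linked proteins to RNA. Lysates of whole cells were then incubated with beads for 4 h and the beads were washed 5 times. The protocol names beads with a c-myc antibody and beads that bind green fluorescent protein, without saying which served which strain, so strain, tag and beads cannot be told apart in these groups. Libraries were made from 500 ng of RNA fragmented to 200 bp, without selection of messages and without removal of rRNA. Replicates are described as biological in the study design. Unless another fit is named, the p-values rest on a spread estimated over all 12 libraries, not on the compared replicates alone. The 2 libraries of each compared group differed in genes of mating type, and the part of strain in this spread was not tested.

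Mex67, together with its partner Mtr2, is the general export receptor for messenger RNA in yeast. It is loaded onto finished messages by adaptor proteins such as Yra1, Nab2 and Npl3, and it carries them through the nuclear pore by binding the phenylalanine-glycine (FG) repeats of pore proteins. The helicase Dbp5 strips it off on the cytoplasmic side. Mex67-Mtr2 also takes part in the export of ribosomal subunits and of the telomerase RNA. A library of total input RNA was not analysed here, so the level of an RNA in the cells and its binding cannot be told apart, nor can fewer cells from less RNA per cell.

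The Mex67 libraries held 354440 and 422858 counts and the no-tag libraries 684839 and 363586 (replicates 1 and 2). Of 7126 features, 5245 had enough counts to be tested. Levels are given below as CPM, the count of a feature relative to the total of its library, scaled with edgeR's TMM factors, which set the bulk of features level between libraries. CPM carry no correction for length and are compared between libraries, not between genes. Levels without overlap mean that both Mex67 libraries lay above, or both below, both no-tag libraries.

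The libraries of a group were not alike in all respects. STE2, the receptor of a cells for mating pheromone, had 7.75 and 356 CPM in the Mex67 libraries and 3.55 and 172 in the no-tag libraries. STE3, the receptor of alpha cells, had 202 and 23.4 CPM in the Mex67 libraries and 357 and 335 in the no-tag libraries. The 8 a-cell genes together held 16.9 and 1253 CPM, here without the TMM factors, in the Mex67 libraries and 20.4 and 465 in the no-tag libraries. The 9 alpha-cell genes held 3823 and 251 in the Mex67 libraries and 2298 and 2585 in the no-tag libraries. Of the a-cell genes, 6 and 0 were at 0 counts in the Mex67 libraries and 4 and 0 in the no-tag libraries, and 4 of the alpha-cell genes were at 0 in each of the 4 libraries. No-tag replicate 2 thus held both sets, and the other 3 libraries mostly held one. The Mex67 libraries carry the same strain label but differed in which set they mostly held. LEU2, which serves leucine synthesis and is often deleted in laboratory strains, had 1080 and 2.34 CPM in the Mex67 libraries and 1378 and 11.9 in the no-tag libraries. The part of mating type and strain in the results below was not tested. The small heat shock gene HSP26 had 142 and 67.9 CPM in the Mex67 libraries and 56.8 and 303 in the no-tag libraries, while after heat it reached 8048 and 10241 CPM with Mex67.

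No feature passed the test between Mex67 and no tag. With edgeR's quasi-likelihood test and Benjamini-Hochberg adjustment over 5245 features, 0 were called at 0.05, and the lowest adjusted p was 0.125 (YAT1). At an unadjusted p under 0.05 there were 116 features higher with Mex67 (2.21% of those tested) and 87 lower (1.66%). DESeq2 called 1 feature (0.0191%). Levels did not overlap for 880 features higher with Mex67 (16.8% of those tested) and for 830 lower (15.8%), and the median log2 change over all features was −0.00. Libraries were also simulated with the spread estimated from these data. There the test found 2.67% of planted 2-fold changes, 38% of 4-fold changes and 85.3% of 16-fold changes. The simulated sets had 104 calls on average and the data had 0 in edgeR, so these rates need not hold for the data. In the data, edgeR called neither YAT1, with a log2 change of 4.13, nor SNR52, a small nucleolar RNA, with −4.10. Most planted changes of 4-fold or less were missed, and larger changes may be missed in the data too.

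The distance between a Mex67 library and a no-tag library depended on which libraries were taken. Over 1437 features with a mean of at least 50 counts, Mex67 replicate 2 and no-tag replicate 2 differed by a median of 0.25 on the log2 scale regardless of sign, and 3.83% of the features differed by over 2-fold. The other 3 pairs of a Mex67 and a no-tag library had medians of 0.42 to 0.47, with 16.7% to 20.9% over 2-fold. The Mex67 replicates differed from each other by 0.41 and the no-tag replicates by 0.39. Mex67 replicate 2 was thus closer to no-tag replicate 2 than either was to its own replicate.

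The clearest single difference was the message of YAT1 (YAR035W, build R64, chromosome I, 190193 to 192256), a carnitine acetyltransferase of the mitochondrial surface that passes acetyl groups to carnitine. It had 199 and 77.3 CPM in the Mex67 libraries, against 8.88 and 5.93 CPM in the no-tag libraries, which were 77 and 33 counts against 5 and 2. Both Mex67 libraries lay several times above both controls. The log2 change was 4.13 ± 0.65 (SE of the fit), with an adjusted p of 0.125 in edgeR and 0.0029 in DESeq2. With only the 2 compared groups in the fit, the edgeR adjusted p was 0.96. Leaving out 1 of the 4 libraries gave log2 changes of 3.30 to 4.67. The Npl3 libraries at 25 °C were as low as the controls, with 5.55 and 11.2 CPM, and against them YAT1 was called (log2 change 3.94, edgeR adjusted p = 0.0183). With a correction for gene length the log2 change was 3.61 and the adjusted p 0.112. At 42 °C the Mex67 libraries again lay above the controls, with 141 and 136 CPM against 16.7 and 45.8 (log2 change 1.82, edgeR adjusted p = 0.42).

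YAT1 belongs to a list of 35 genes that yeast keeps low on glucose, for the use of acetate, fat and other carbon sources. Of its 25 tested members, 21 lay above 0 and the median log2 change was 0.98, against 2614 of 5245 and −0.00 over all features. Levels did not overlap for 10 members higher with Mex67 (40% of them, against 16.8% of all features) and for 0 lower. All 6 tested genes of the carnitine and acetyl branch lay above 0, with a median of 1.05. YAT2, a related carnitine acetyltransferase of the cytosol, had 158 and 35.1 CPM in the Mex67 libraries and 33.7 and 5.93 in the no-tag libraries. Its lowest Mex67 library only just exceeded its highest control, and the log2 change was 2.13 ± 0.83. ACH1, an enzyme that moves coenzyme A between acetyl and other short acids, had 165 and 98.4 CPM with Mex67 and 72.8 and 59.3 in the controls. Most members were rare: the gluconeogenic enzyme gene PCK1 had 10.3 and 21.1 CPM with Mex67 and 3.55 and 8.9 in the controls. CIT2, the peroxisomal citrate synthase gene, showed a spread between replicates that exceeded the difference between groups, with 1018 and 148 CPM in the Mex67 libraries and 490 and 92 in the controls. Of the members with a mean of at least 50 counts, ALD4 followed CIT2 with a log2 change of 0.27 ± 0.77. The lowest were ACO1 (−0.56 ± 0.60) and HXK1 (−0.59 ± 0.73). The groups overlapped for each of these. Without no-tag replicate 1 the median of the list was 0.64 with 17 of 25 members above 0. Without Mex67 replicate 1 it was 0.46 with 17 of 29 above 0.

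**Figure D1:**
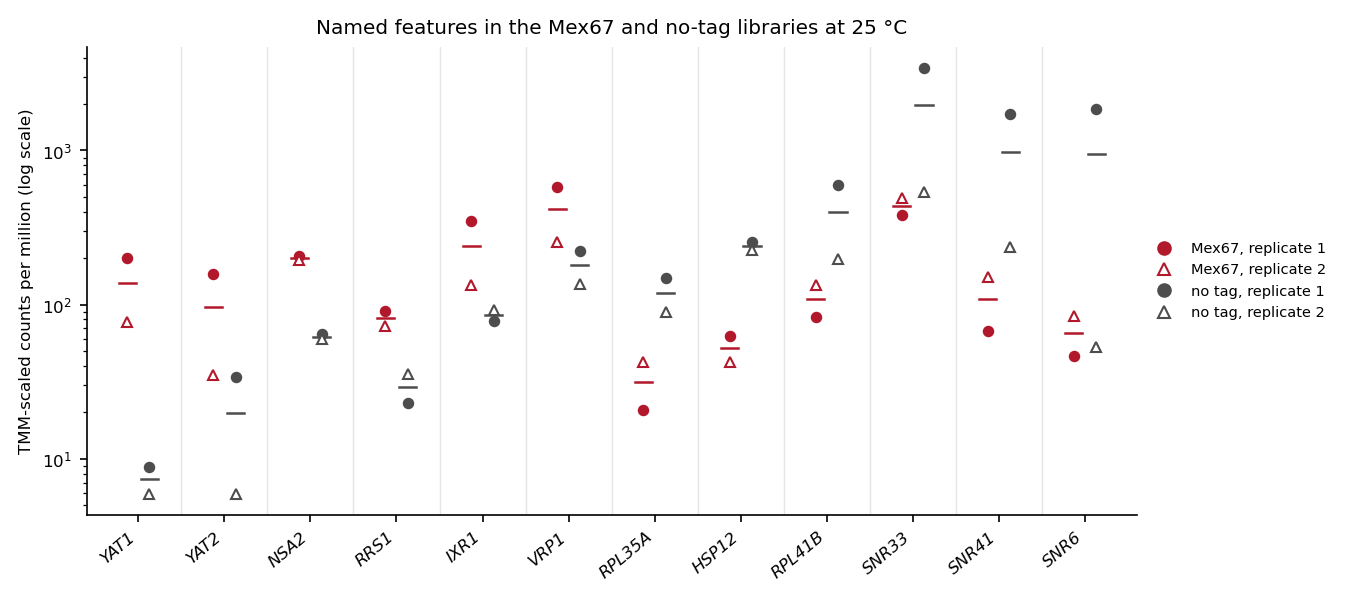
Levels of 12 named features in each 25 °C library, in TMM-scaled CPM on a log axis. Symbols are libraries and bars are the means of 2. YAT1 and NSA2 separate Mex67 (left in each column) from no tag, whereas for SNR33, SNR41 and SNR6 no-tag replicate 1 lies far above the other 3 libraries.

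For NSA2 (YER126C, chromosome V, 413394 to 414179), an assembly factor of the large ribosomal subunit, the libraries lay close together within each group. Its message had 207 and 194 CPM in the Mex67 libraries and 63.9 and 59.3 in the no-tag libraries. The lower Mex67 library was over 3 times as high as the higher control, a distance larger than the spread within either, and the log2 change was 1.70 ± 0.33 with an edgeR adjusted p of 0.52. In the Npl3 libraries NSA2 stood at 189 and 198 CPM, as high as with Mex67 (log2 change of Mex67 over Npl3 0.05, edgeR adjusted p = 0.94).

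Among 2943 features with a mean of at least 20 counts, 5 had both Mex67 libraries at least 2 times as high as both controls. They were YAT1, NSA2, RRS1, RPC19 and BUR6. The mean was taken over both groups, so that a feature could reach it through its higher group alone. RRS1, needed for assembly of the large subunit and its 5S particle, had 90.5 and 72.6 CPM with Mex67 and 23.1 and 35.6 in the controls. RPC19, a subunit shared by RNA polymerases I and III, had 77.5 and 77.3 CPM with Mex67 and 23.1 and 35.6 in the controls. BUR6, a subunit of the transcription regulator NC2, had 103 and 110 CPM with Mex67 and 51.5 and 47.5 in the controls. The log2 changes of these 3 genes were 1.50 ± 0.44, 1.43 ± 0.45 and 1.10 ± 0.41, with an edgeR adjusted p of 0.999 for each.

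In the other direction, 6 features had both Mex67 libraries at least 2-fold below both controls: MRI1, LTP1, RPL35A, HSP12, SNR76 and SNR52. HSP12, a membrane-protecting stress protein, had 62 and 42.2 CPM with Mex67 and 254 and 225 in the controls. Its log2 change was −2.20 ± 1.00. RPL35A, a protein of the large ribosomal subunit, had 20.7 and 42.2 CPM with Mex67 and 149 and 89 in the controls (log2 change −1.92 ± 0.50). MRI1, an enzyme of methionine salvage, had 41.4 and 63.2 CPM with Mex67 and 128 and 131 in the controls (−1.30 ± 0.54). LTP1, a small protein phosphatase, had 23.3 and 14.1 CPM with Mex67 and 87 and 50.4 in the controls (−1.91 ± 0.55). None of these passed the test.

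Among features without overlap at a mean of at least 50 counts, the others with the highest log2 changes were of mixed function. IXR1, a DNA-binding repressor of hypoxic genes, had 346 and 134 CPM with Mex67 and 78.1 and 92 in the controls. VRP1, an actin-organising protein, had 579 and 255 CPM with Mex67 and 224 and 136 in the controls. PRY2, a secreted sterol-binding protein, had 439 and 178 CPM with Mex67 and 149 and 125 in the controls. Its relative PRY3, found in the cell wall, had 326 and 293 CPM with Mex67 and 99.4 and 184 in the controls. In IXR1, VRP1 and PRY2, Mex67 replicate 1 was over 2 times as high as replicate 2. The remaining 7 of this group were ZRT3 (vacuolar zinc transport), OXA1 (membrane insertion in mitochondria), HXT2 (glucose transport), YHB1 (nitric oxide breakdown), SRP40 (a nucleolar protein), DBP3 (a ribosome assembly helicase) and SOK2 (a transcription regulator). Their log2 changes lay between 0.98 and 1.09.

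Whether messages of the export machinery themselves were recovered was read from 33 genes. Of these, 19 lay above 0 and the median was 0.04, against −0.00 over all features. Without Mex67 replicate 2 the median was −0.32 with 13 of 33 above 0. There were 6 members higher without overlap (18.2%) and 4 lower (12.1%), close to the 16.8% and 15.8% of all features. MEX67 (YPL169C) had 212 and 112 CPM in the Mex67 libraries and 197 and 142 in the controls, and MTR2 had 38.8 and 53.9 CPM with Mex67 and 62.2 and 44.5 in the controls. The groups overlapped for both receptor subunits. Their log2 changes were −0.07 ± 0.43 and −0.22 ± 0.39, and both turned positive with total counts only (0.22 and 0.06). The message of the precipitated protein was therefore not higher in its own libraries by a measurable amount.

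Among the adaptors, NAB2, a poly(A)-binding protein, had 235 and 297 CPM with Mex67 and 162 and 193 in the controls (log2 change 0.59 ± 0.34). NPL3, a shuttling SR-like protein, had 501 and 560 CPM with Mex67 and 424 and 398 in the controls (0.37 ± 0.49). For both, the lower Mex67 library exceeded the higher control. YRA1, the adaptor that recruits Mex67, had 152 and 344 CPM with Mex67 and 243 and 252 in the controls, which overlap. HRP1, a cleavage factor that shuttles with messages, had 98.2 and 183 CPM with Mex67 and 220 and 270 in the controls, lower without overlap (−0.80 ± 0.41). Of the genes that act at the cytoplasmic side, DBP5 had 202 and 169 CPM with Mex67 and 154 and 208 in the controls. GFD1, a cofactor of Dbp5 and Nab2, had 38.8 and 32.8 CPM with Mex67 and 33.7 and 8.9 in the controls (0.65 ± 0.80). The edgeR adjusted p was 0.999 or above for all of these.

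Messages of the nuclear pore were read in the same way, beginning with those of FG-repeat proteins, to which Mex67 binds during transit. None passed the test against no tag. NUP42 (YDR192C, chromosome IV, 843569 to 844861), an FG protein of the cytoplasmic face, had 80.1 and 187 CPM in the Mex67 libraries and 42.6 and 11.9 in the no-tag libraries. The groups did not overlap, and the log2 change was 2.20 ± 0.56 with an edgeR adjusted p of 0.999. NUP1, an FG protein of the nuclear basket, had 414 and 471 CPM with Mex67 and 231 and 255 in the controls. Both Mex67 libraries again lay above both controls, with a log2 change of 0.86 ± 0.36. NUP100, an FG protein of the channel, had 623 and 1401 CPM with Mex67 and 623 and 151 in the controls. One library of each group was thus level (log2 change 1.38 ± 0.64). NSP1, another channel FG protein, had 380 and 815 CPM with Mex67 and 405 and 205 in the controls. NUP116, the close relative of NUP100, had 985 and 1558 CPM with Mex67 and 1373 and 282 in the controls, and these overlap. In each of NUP42, NUP100, NUP116 and NSP1 the higher Mex67 library was replicate 2 and the higher control was replicate 1.

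Of 11 tested FG or basket genes, 9 lay above 0 with a median of 0.38, and 3 were higher without overlap (27.3%) and 1 lower (9.09%). Of 17 scaffold genes, which form the rings and the membrane anchor of the pore, 8 lay above 0 with a median of −0.04, and 3 were higher (17.6%) and 1 lower (5.88%) without overlap. Over all features these shares were 16.8% and 15.8%, so that the scaffold share of higher genes was near that of all features. The median of all 28 pore genes was 0.09, and 0.37 without Mex67 replicate 1. The scaffold gene NUP84 had 80.1 and 72.6 CPM with Mex67 and 85.2 and 62.3 in the controls, and NUP133 had 124 and 122 CPM with Mex67 and 135 and 122 in the controls. Scaffold and FG messages were not tested against each other.

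The same messages were set against the Npl3 libraries of the same temperature. No no-tag level enters this difference, but its spread and scaling come from the fit of all 12 libraries, no-tag libraries included. There edgeR called 15 features higher with Mex67 (0.286% of those tested) and 132 lower (2.52%), with 490 (9.34%) and 741 (14.1%) at an unadjusted p under 0.05, and 51.2% of features lay above 0. Of the 28 pore genes, 3 were called higher and 0 lower. Of the 17 scaffold genes 13 lay above 0 against Npl3 (median 0.47), and of the 11 FG or basket genes 10 did (median 1.52). Across 5134 coding features this difference rose with gene length (rank correlation 0.543). Its median was 0.33 for features of 1500 to 2500 bp and 0.53 for longer ones. The median length was 2520 bp for the scaffold genes and 2163 bp for the FG or basket genes. The scaffold median was thus near that of long coding features. NUP42 had 18 and 16.8 CPM in the Npl3 libraries (log2 change of Mex67 over Npl3 2.94, edgeR adjusted p = 0.0265). NUP100 had 112 and 79.3 CPM there (3.40, adjusted p = 0.0306), and NUP1 had 121 and 98.5 (2.01, adjusted p = 0.0265). NSP1 (2.17, adjusted p = 0.0577) and NUP116 (2.43, adjusted p = 0.0835) missed the threshold. Part of these distances lay between Npl3 and the controls. The log2 change of Npl3 over no tag was −0.73 for NUP42, −2.03 for NUP100 and −1.15 for NUP1. It was −1.21 for NSP1 and −1.82 for NUP116. With a correction for gene length the log2 changes of Mex67 over Npl3 in the 3 called genes were 2.87, 2.95 and 1.53. Their edgeR adjusted p lay between 0.112 and 0.119. Leaving out any 1 of the 4 compared libraries also ended the 3 calls, with log2 changes of 2.17 to 3.41 for NUP42, 2.68 to 3.87 for NUP100 and 1.87 to 2.16 for NUP1.

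**Figure D2:**
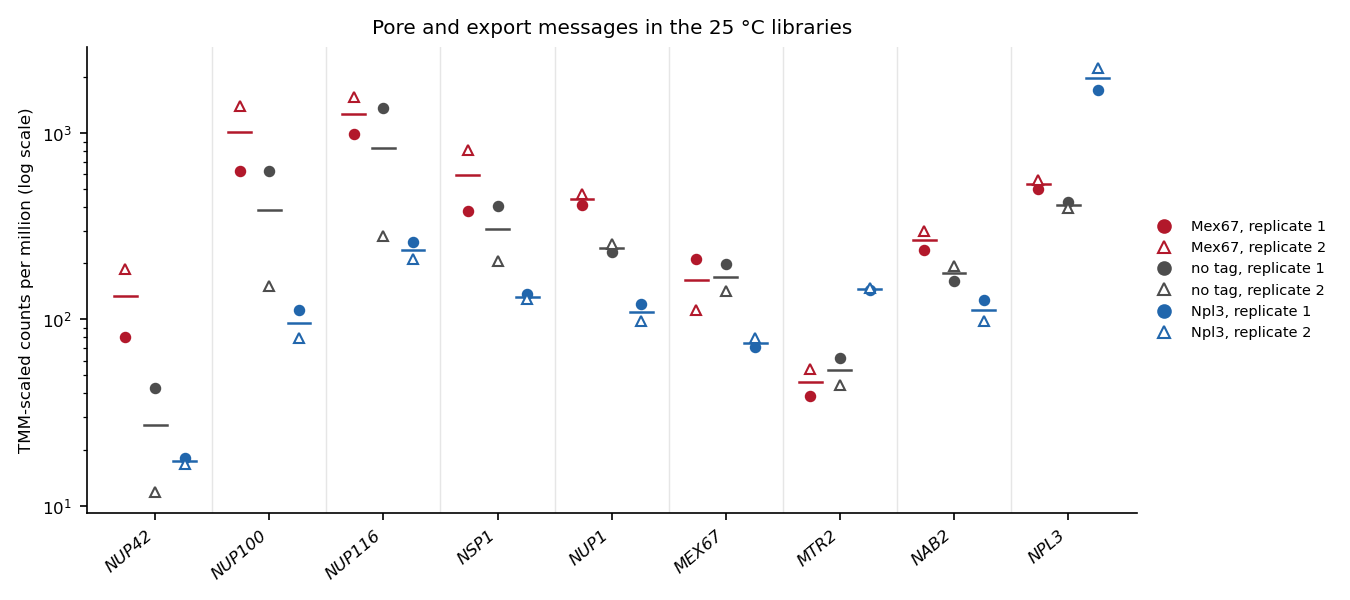
Levels of pore and export messages in the 25 °C libraries of Mex67, no tag and Npl3 (left to right in each column), in TMM-scaled CPM on a log axis, with the mean of 2 libraries as a bar. NUP42, NUP100, NUP116, NSP1 and NUP1 are above both Npl3 libraries in both Mex67 libraries, while only NUP42 and NUP1 of these are above both controls.

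The 132 features lower with Mex67 than with Npl3 were short. Their median length was 446 bp (coding features), against 1287 bp over all 5134 coding features tested and 2064 bp for the 15 higher ones. With the length correction 0 features were called in either direction, and leaving out any 1 of the 4 compared libraries gave 0 to 4 calls in all. MTR2 was among the 132, with 143 and 147 CPM in the Npl3 libraries (log2 change of Mex67 over Npl3 −1.64, edgeR adjusted p = 0.0389), and so were 3 of the 5 TREX-2 messages, SUS1, SEM1 and CDC31. TREX-2 links transcribed genes to the pore, and its small subunits have short messages.

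Genes for the making of ribosomal subunits lay mostly above 0. Of 158 tested members 145 did so (against 49.8% of all features), with a median of 0.50. Both Mex67 libraries exceeded both controls for 62 members (39.2%, against 16.8% of all features), and 1, YVH1, was lower without overlap. The 80 tested genes of the small-subunit pathway had a median of 0.52 and the 78 of the large-subunit pathway 0.48. NOG1, a GTPase of the large-subunit path, had 341 and 422 CPM with Mex67 and 90.6 and 314 in the controls. PWP2, part of the small-subunit processome, had 204 and 237 CPM with Mex67 and 63.9 and 166 in the controls. HCA4, a helicase of the same processome, had 142 and 136 CPM with Mex67 and 17.8 and 71.2 in the controls (log2 change 1.71 ± 0.54).

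In all 3 examples the low value was that of no-tag replicate 1, and this held for the list. Against no-tag replicate 1, the median of the list was 0.97 in Mex67 replicate 1 and 1.11 in Mex67 replicate 2. Against no-tag replicate 2 it was 0.04 and 0.12. The no-tag replicates differed from each other by −0.99 (replicate 1 over replicate 2), which is as large as the difference from Mex67. Without no-tag replicate 1 the median was 0.09 and 95 of 159 members lay above 0, and without no-tag replicate 2 it was 1.07 with 155 above 0. NSA2 and RRS1 were exceptions among these genes in that both controls were low. NOP56, a core protein of box C/D snoRNA particles and the lowest list member with a mean of at least 50 counts, had 310 and 464 CPM with Mex67 and 384 and 608 in the controls.

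**Figure D3:**
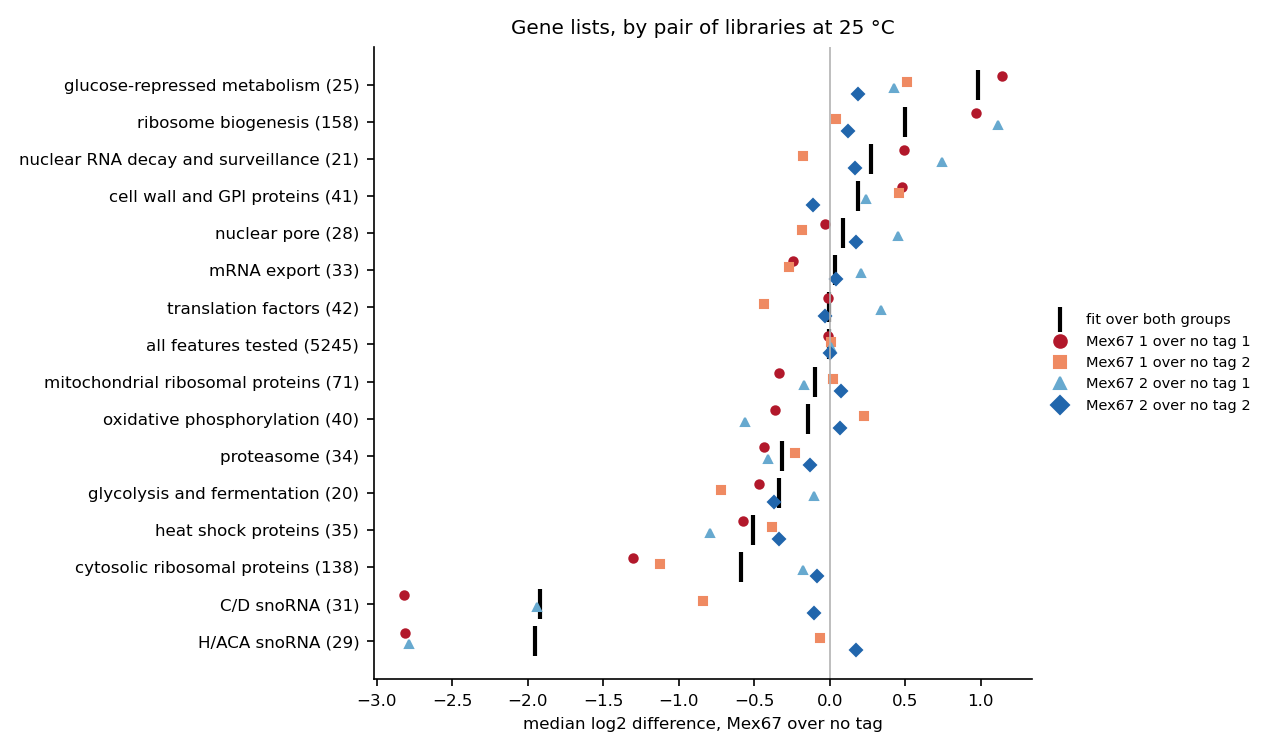
Median log2 difference of Mex67 over no tag for 15 gene lists and for all features tested (number tested in brackets). The black bar is the fit over both groups and the symbols are the 4 pairs of a Mex67 and a no-tag library. Ribosome assembly genes lie near 1 against no-tag replicate 1 and near 0 against replicate 2, and ribosomal protein genes lie near −1.1 to −1.3 with Mex67 replicate 1 and near −0.1 to −0.2 with replicate 2.

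The 138 genes for cytosolic ribosomal proteins lay the other way: 3 were above 0 and the median was −0.59. Levels did not overlap for 67 lower (48.6%, against 15.8% of all features) and for 1 higher, RPL15B. RPL41B, among the shortest of these messages, had 82.7 and 134 CPM with Mex67 and 598 and 199 in the controls (log2 change −1.89 ± 0.55). RPL29 had 85.3 and 187 CPM with Mex67 and 495 and 264 in the controls (−1.48 ± 0.62). In both genes, Mex67 replicate 1 was the lowest library. RPS8B, by contrast, overlapped, with 176 and 375 CPM with Mex67 and 257 and 249 in the controls. The list followed the Mex67 library: its median was −1.30 and −1.12 for Mex67 replicate 1 against the 2 controls, and −0.18 and −0.08 for Mex67 replicate 2. The Mex67 replicates themselves differed by −1.06 (replicate 1 over replicate 2). Without Mex67 replicate 1 the median was −0.14 with 42 of 138 above 0, and without Mex67 replicate 2 it was −1.24. Many of these genes come in near-identical pairs, so counts of single paralogs are uncertain.

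Of 42 translation factor genes 20 lay above 0, with a median of −0.01, and without Mex67 replicate 2 it was −0.32 with 12 above 0. The 28 initiation factors had a median of 0.04 and the 14 elongation and termination factors −0.34. EAP1, which blocks the cap-binding protein, had 181 and 148 CPM with Mex67 and 83.5 and 110 in the controls (log2 change 0.77 ± 0.38). TEF2, an elongation factor gene with a near-identical copy, had 819 and 1405 CPM with Mex67 and 1628 and 1994 in the controls (−0.70 ± 0.62). Messages of mitochondrial ribosomal proteins had a median of −0.10, with 30 of 71 above 0. That median was 0.09 with 42 of 71 above 0 without no-tag replicate 1, and −0.32 without Mex67 replicate 2.

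Small nucleolar RNAs (snoRNAs) guide the modification and cutting of rRNA in the nucleolus and are not exported as messages. They made up 5.86% and 6.85% of the counts in the Mex67 libraries, against 20% and 5.78% in the no-tag libraries. Nuclear coding genes made up 82.5% and 83.9% with Mex67 and 69.9% and 84.3% in the controls. No-tag replicate 1 was the only one of the 4 that stood apart. Of 47 listed box C/D snoRNAs 31 had enough counts to be tested. Of these 0 lay above 0 (median −1.92), and of 29 H/ACA snoRNAs 1 did (median −1.95). Without overlap, 19 C/D (61.3%) and 9 H/ACA members (31%) were lower with Mex67, against 15.8% of all features.

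Of the 12 lowest changes without overlap at a mean of at least 50 counts, 10 were of this class, and HSP12 and RPL41B were the others. SNR41, a C/D guide, had 67.2 and 150 CPM with Mex67 and 1721 and 237 in the controls (log2 change −3.17 ± 1.04). SNR33, an H/ACA guide, had 383 and 492 CPM with Mex67 and 3415 and 537 in the controls (−2.18 ± 0.93). For SNR33, no-tag replicate 2 was close to Mex67 replicate 2. SNR64, SNR13, SNR35, SNR5, SNR70, SNR43, SNR77 and SNR34 had log2 changes of −3.12 to −1.81 with the same order of libraries, no-tag replicate 1 highest. Without no-tag replicate 1 the H/ACA median was 0.15 with 19 of 29 above 0, and the C/D median was −0.33 with 7 of 31 above 0. Of all the snoRNAs with a mean of at least 20 counts, SNR76 and SNR52, both C/D guides, kept a 2-fold distance from both controls. Both reached that mean through the controls, with 71 and 11 counts for SNR76 and 160 and 16 for SNR52. The Mex67 libraries held 4 and 3 counts of SNR76 and 1 and 7 of SNR52. SNR76 also entered the test through its counts in the controls. SNR76 had 10.3 and 7.03 CPM with Mex67 and 126 and 32.6 in the controls (−3.22 ± 0.79). SNR52 had 2.58 and 16.4 CPM with Mex67 and 284 and 47.5 in the controls (−4.10 ± 1.16).

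**Figure D4:**
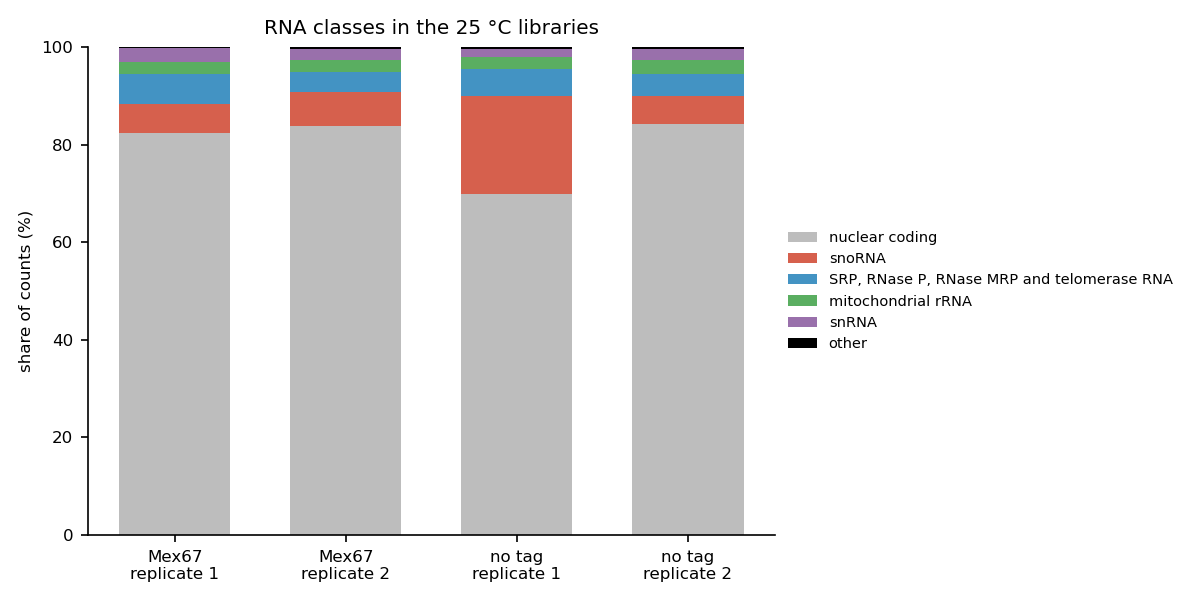
Share of counts by RNA class in each 25 °C library, in percent, with the Mex67 libraries left of the no-tag libraries. The snoRNA part is near 6% to 7% in 3 libraries and 20% in no-tag replicate 1.

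Spliceosomal RNAs overlapped between the groups. SNR19, the U1 RNA, had 8790 and 7093 CPM with Mex67 and 7865 and 6482 in the controls. LSR1, the U2 RNA, had 16524 and 15310 CPM with Mex67 and 11488 and 18782 in the controls. SNR6, the U6 RNA, had 46.5 and 84.3 CPM with Mex67 and 1847 and 53.4 in the controls, so that 1 control stood far above the other 3 libraries. TLC1, the telomerase RNA, had 463 and 391 CPM with Mex67 and 566 and 320 in the controls. SCR1, the RNA of the signal recognition particle (chromosome V, 441987 to 442508), held 5.66% and 3.82% of all counts with Mex67 and 4.3% and 3.99% in the controls. For TLC1 and SCR1, as for U1 and U2, no difference beyond the spread was measurable. RPR1, the RNA of RNase P, had 2156 and 1745 CPM with Mex67 and 8204 and 2697 in the controls (log2 change −1.48 ± 0.70). NME1, the RNA of RNase MRP, had 1246 and 1305 CPM with Mex67 and 5617 and 1302 in the controls (−1.44 ± 1.01). Both shared the excess of no-tag replicate 1 with the snoRNAs.

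Glycolysis and fermentation genes, which serve fast growth on glucose, had a median of −0.34 with 2 of 20 above 0. PGK1 had 4270 and 5919 CPM with Mex67 and 8731 and 9547 in the controls (log2 change −0.84 ± 0.67). ADH1, the fermentative alcohol dehydrogenase, had 1579 and 7791 CPM with Mex67 and 8653 and 9372 in the controls (−0.94 ± 0.73). The minor glyceraldehyde-phosphate dehydrogenase gene TDH1 stood out in 1 library, with 4195 and 255 CPM with Mex67 and 845 and 926 in the controls. The actin gene ACT1 had 2143 and 2361 CPM with Mex67 and 2804 and 3050 in the controls (−0.38 ± 0.56). With total counts only, the glycolysis median was −0.09, and without Mex67 replicate 2 it was −0.54.

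Of 35 heat shock genes, 6 lay above 0 and the median was −0.51. Without overlap, 17 were lower (48.6%, against 15.8% of all features) and 0 were higher. The median was −0.31 without no-tag replicate 1. HSP82, the inducible Hsp90, had 1300 and 883 CPM with Mex67 and 2557 and 2056 in the controls. MBF1, a coactivator with a short message, had 390 and 309 CPM with Mex67 and 1000 and 478 in the controls (log2 change −1.08 ± 0.53). In this list all 4 pairs of libraries gave medians below 0, from −0.79 to −0.33. The 34 proteasome genes lay nearer to 0, with a median of −0.32, 3 above 0 and pair medians of −0.44 to −0.13. Of them 21 were lower without overlap (61.8%, against 15.8% of all features). The median was −0.18 without no-tag replicate 1 and −0.42 without no-tag replicate 2. With total counts only the heat shock median was −0.21 and the proteasome median −0.03.

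Nuclear-encoded genes of oxidative phosphorylation had a median of −0.14, with 14 of 40 above 0, but without no-tag replicate 1 it was 0.27 with 25 of 40 above 0. Of 6 tested genes of the mitochondrial genome, whose RNA stays within mitochondria, 1 lay above 0 and 4 were lower without overlap (66.7%, against 15.8% of all features), with a median of −0.44. The median was −0.69 without Mex67 replicate 1 and −0.26 without Mex67 replicate 2. COB, the cytochrome b gene, had 56.9 and 63.2 CPM with Mex67 and 110 and 157 in the controls (log2 change −1.14 ± 0.40). OLI1, an ATP synthase subunit gene, had 150 and 173 CPM with Mex67 and 305 and 303 in the controls (−0.91 ± 0.43). OLI1 was about level within each group, while the controls of COB differed more. Both messages were lower with Mex67 by more than the spread within either group, without passing the test. Of the members with a mean of at least 50 counts, COX1 had a log2 change of −0.47 ± 0.59 and COX2 of 0.02 ± 0.55.

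The median of amino acid synthesis genes was 0.00 with 32 of 62 above 0, RNA polymerase II subunits −0.01 with 5 of 12, and histones 0.04 with 6 of 11. Without Mex67 replicate 2 the histone median was −1.02 with 4 of 11 above 0. With 1 library left out, the medians ranged from −0.16 to 0.14 for amino acid synthesis and from −0.19 to 0.17 for RNA polymerase II. Genes of nuclear RNA decay and surveillance, which degrade faulty transcripts, had a median of 0.27 with 16 of 21 above 0. Their pair medians ranged from −0.18 to 0.74, and the higher ones were against no-tag replicate 1. The median was −0.01 without no-tag replicate 1 and 0.68 without no-tag replicate 2.

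Across 5134 coding features the rank correlation of the log2 change with gene length was 0.141. Features up to 300 bp had a median of −0.40 and those of 1500 to 2500 bp 0.10. The no-tag replicates differed more by length than the groups did: replicate 1 over replicate 2 had a median of 0.86 up to 300 bp and −0.38 above 2500 bp (rank correlation −0.389). Mex67 replicate 2 over no-tag replicate 2 had 0.13 up to 300 bp and −0.10 above 2500 bp. With length-corrected offsets the median of ribosome assembly genes was 0.47 and that of ribosomal protein genes −0.54. When coding features were split by mean level into 5 groups of equal size, the highest had a median of −0.14 and the other 4 had 0.04 to 0.06.

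**Figure D5:**
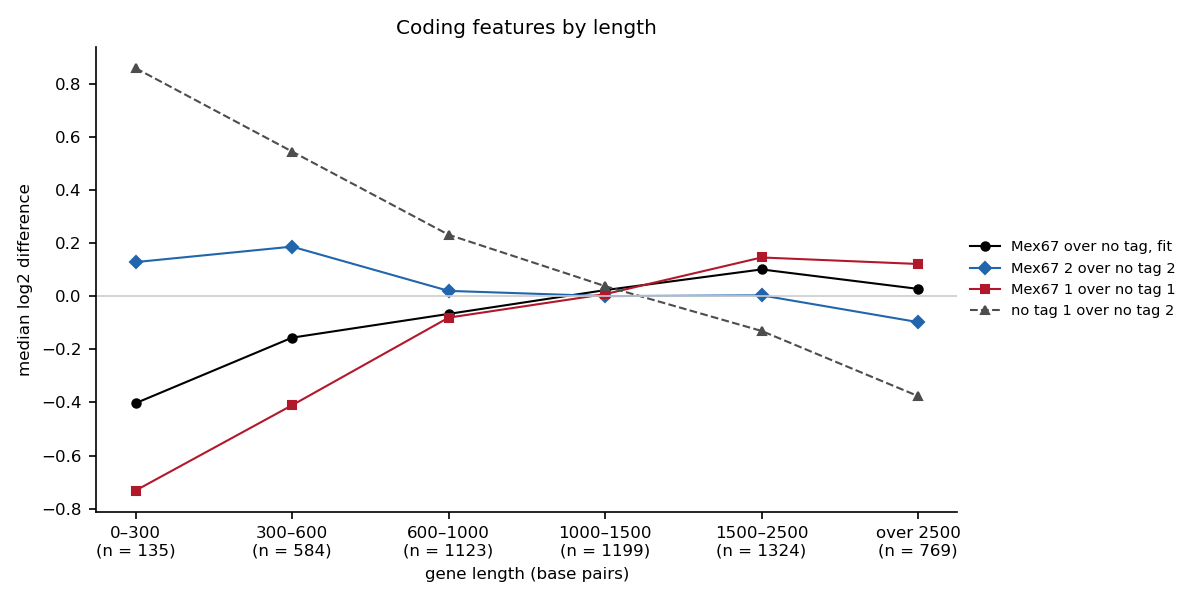
Median log2 difference of coding features by gene length in base pairs (number of features under each bin), for the fit of Mex67 over no tag, 2 pairs of libraries and the no-tag replicates against each other (dashed). The short features lie at 0.86 between the no-tag replicates and at −0.40 between the groups.

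The 42 °C libraries allow the same contrast in other libraries from the divided cultures. There 0 features were called by edgeR (lowest adjusted p 0.42), 344 had an unadjusted p under 0.05 and were higher with Mex67 (6.56%) and 257 were lower (4.9%). Levels did not overlap for 1423 features higher (27.1%) and 984 lower (18.8%). At this temperature no-tag replicate 1 held only 87741 counts, 23.9% of them from snoRNAs. No-tag replicate 2 held 485848 counts and the Mex67 libraries 889402 and 449513. The part of this low depth in the 42 °C values was not tested. Of the 880 features higher without overlap at 25 °C, 380 were also so at 42 °C, which is 43.2% of the 25 °C list and 26.7% of the 42 °C list. Of the 830 lower ones, 244 were shared, which is 29.4% of the 25 °C list and 24.8% of the 42 °C list. YAT1, YAT2, NUP42, VRP1 and IXR1 lay above both controls at both temperatures.

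Lists differed in whether their medians kept the sign. Ribosomal protein genes had −0.59 at 25 °C and −1.29 at 42 °C, and glycolysis genes −0.34 and −0.78. Ribosome assembly genes had 0.50 at 25 °C and −0.40 at 42 °C, heat shock genes −0.51 and 0.67, and proteasome genes −0.32 and 0.29. FG and basket genes of the pore had 0.38 at 25 °C and 0.46 at 42 °C, and scaffold genes −0.04 and −0.22. The difference of the Mex67 effect between the temperatures, tested as an interaction, passed for 0 of 5245 features (edgeR, lowest adjusted p 0.996, and likewise 0 with DESeq2). The fit did not pair the 25 °C and 42 °C libraries of a divided culture. Across 2247 features, the difference between replicates at 25 °C correlated with that at 42 °C at 0.60 for Mex67 and 0.26 for no tag. The interaction p-values leave this out of account. At an unadjusted p under 0.05 the Mex67 effect was larger at 25 °C for 72 features (1.37%) and smaller for 114 (2.17%). The differences between these list medians were not tested.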

How the data were processed

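The values are counts of reads per annotated gene feature, as deposited by the authors, 1 table per library, with no normalization. Per the submitters' processing notes, CASAVA 1.8.2, STAR, featureCounts, Subread 1.5.0-p1 and DESeq2 were used with build R64. Strand setting and treatment of reads with several positions are not given in the sources used here, so paralogs, transposon genes and overlapping genes are uncertain. Depth limits single values through counting error, which intervals here do not separate from biological spread.

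Features were named through RefSeq (6048 by locus tag, 114 by symbol or synonym, 964 not matched), which also gave coordinates and lengths. All 12 libraries were fitted together in R 4.3.3 with edgeR 4.0.16 (robust quasi-likelihood, TMM, filterByExpr with minimum counts of 10 and 15 in total), leaving 6 residual degrees of freedom. The common biological coefficient of variation was 0.356. P-values were Benjamini-Hochberg adjusted at 0.05 within each of 4 contrasts. Differences between single libraries are log2 of CPM plus 2. The SE was derived from the fit over all 12 libraries, as the log2 change, regardless of sign, divided by the square root of the quasi-likelihood F. The test was tried on simulated data (3 sets with 200 planted features), with 104 calls of which 5.33 were false on average.

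The 24 gene lists, the members and the tests were chosen with earlier results of these data known. Named genes follow a rule: the 12 highest and 12 lowest features that did not overlap and averaged 50 counts or more, any called feature, the 2 highest and lowest of each list at that mean, the 8 largest shares, and 24 fixed genes. Not all of these are printed. NUP1, NUP116, NUP84, NUP133, YAT2, ACH1, PCK1, RRS1, RPC19, BUR6, HCA4, NOG1, PWP2, YVH1, RPL15B, RPL35A, MRI1, LTP1, SNR76, SNR52, COB, HSP82, SUS1, SEM1, CDC31, RLM1, SED1, TIR2 and THI20 were added after their values were seen. Alternatives were DESeq2 1.42.0, RLE factors, total counts only, coding features only, 2 other filters, only the groups compared, a replicate block, length-corrected offsets (lowess, span 0.4) and leaving out each library. Figures were drawn with matplotlib 3.10.9.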

Additional observations from a re-analysis of the deposited data

Results flagged for a closer look

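For 6 named genes both Mex67 libraries lay on one side of both controls at 25 °C and on the other side at 42 °C. At 42 °C no-tag replicate 1 held only 87741 counts, so its levels have wide counting error. The interaction test (edgeR, without pairing of the divided cultures) gave an adjusted p of 0.996 for each, so none of these differences passed after adjustment. HCA4, the processome helicase, had a log2 change of 1.71 at 25 °C and −0.55 at 42 °C, a difference of 2.26 ± 0.78 (SE). NSA2, the large-subunit assembly factor, had 1.70 and −0.41, a difference of 2.11 ± 0.49, which had the lowest unadjusted interaction p of the 6 genes (7.9e-04). YHB1, the nitric oxide oxidoreductase gene, differed by 1.75 ± 0.67. DBP3, the assembly helicase, differed by 1.62 ± 0.63, and SRP40, the nucleolar protein gene, by 1.34 ± 0.61. LTP1, the small phosphatase gene, went the other way, with −1.91 at 25 °C and 0.38 at 42 °C, a difference of −2.29. The genes were picked from those named in the text.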

How the results depend on the processing

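Mex67 against no tag at 25 °C had 0 calls in edgeR and 1 (YAT1) with DESeq2, with no low-count filter and without Mex67 replicate 2; leaving out single libraries gave 0 to 1 calls. With only the 2 compared groups in the fit, the lowest edgeR adjusted p was 0.96. Features without overlap numbered 1549 higher and 359 lower with total counts only, which moved the median of all features from −0.00 to 0.26. MEX67 then had a log2 change of 0.22 and MTR2 0.059. MEX67 also turned positive without no-tag replicate 1 (0.18) or Mex67 replicate 2 (0.32), and MTR2 without no-tag replicate 1 (0.059) or Mex67 replicate 1 (4e-04); with 1 library left out they ranged over −0.60 to 0.32 and −0.47 to 0.059. For 58 genes, 495 of 497 values under other settings and 692 of 696 with a library left out kept their sign; MEX67 and MTR2 gave the exceptions. Mex67 against Npl3 (147 calls) had 302 with DESeq2, 92 with total counts only, 259 with coding features only, 328 without the filter, 303 with only the 2 groups, 0 with length-corrected offsets, and 0 to 340 when 1 library was left out. The labels share only replicate numbers between strains. A block for the number gave 396 calls against Npl3 and 0 against no tag (lowest adjusted p 0.076, YAT1). Deviations of same-numbered libraries correlated at 0.373 between Mex67 and no tag and at 0.068 between Mex67 and Npl3, across 2247 features. At 42 °C DESeq2 called 38 features (2 higher, 36 lower) where edgeR called 0. DESeq2 gave an adjusted p to only 263 features there, against 5245 in edgeR, so the counts are not alike in base. For the gene lists, medians with 1 library left out are given beside the list where 1 library turned the sign or moved the median most. The causes were not tested. In the simulation, planted changes of 4-fold or less were mostly missed with 2 libraries against 2, and larger changes may be missed in the data too. Features with a few counts, YAT1 in the controls among them, have wide counting error.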

Other observations

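Cell wall and surface genes showed large values in single libraries. TIR4, a mannoprotein made in the cold and without oxygen, had 473 and 32.8 CPM with Mex67 and 10.7 and 80.1 in the controls. Its relative TIR2 had 287 and 14.1 CPM with Mex67 and 0 and 23.7 in the controls. GSC2, the glucan synthase subunit of stress and sporulation, had 969 and 206 CPM with Mex67 and 88.8 and 220 in the controls (log2 change 1.94 ± 0.88), and SED1, a wall structural protein, 6880 and 1626 CPM with Mex67 and 2047 and 1451 in the controls. In each of these 4 genes Mex67 replicate 1 was the highest library and the groups overlapped. RLM1, the transcription factor of the cell wall integrity pathway, did not overlap at either temperature. It had 173 and 84.3 CPM with Mex67 and 44.4 and 32.6 in the controls at 25 °C (log2 change 1.71 ± 0.48), and 360 and 179 CPM with Mex67 and 50.2 and 64.2 in the controls at 42 °C (2.17). The list of 41 cell wall genes had a median of 0.19 (0.08 without Mex67 replicate 1, 0.46 without no-tag replicate 2), with 30 above 0 and 6 higher without overlap (14.6%, against 16.8% of all features).

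The 15 features higher with Mex67 than with Npl3 also held THI20, an enzyme of thiamine synthesis, with a log2 change of 2.55 (edgeR adjusted p = 0.0488) and of 2.01 against no tag.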
